A study of Rattus norvegicus with 25 samples.

Results

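The genes described are 9 that mark or direct Langerhans cells and other dendritic cells: Cd207, Zbtb46, Flt3, Itgax, Cd83, Ccr7, Batf3, Irf4 and Xcr1. They were chosen by name, and their array probes were found by matching each probe's RefSeq accession to a rat gene symbol. Of the 9 genes, 6 had a named probe (8 probes in all) and 3, Zbtb46, Cd83 and Batf3, were bright enough to test, among 12343 tested genes of 15443 named on the array. Gene expression was measured with 1-colour arrays in the esophageal epithelium of 25 male F344 rats, 5 in each of 5 groups. The groups were NMBA plus alpha-tocopherol, NMBA plus delta-tocopherol, NMBA plus gamma-enriched tocopherol, NMBA on a normal diet, and a Control group on a normal diet without NMBA. NMBA is N-nitrosomethylbenzylamine, a nitrosamine that causes esophageal tumours in rats, and tocopherols are forms of vitamin E. The labels state no dose, route, time or age. The rats of the 3 tocopherol groups are called alpha, delta and gamma rats below.

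Dendritic cells take up antigen in tissues, mature, migrate to lymph nodes and present peptides on MHC class II molecules to T cells. Langerhans cells are the dendritic-like cells that reside within stratified squamous epithelium, including that of the esophagus, and Cd207 (langerin) is their usual marker. Conventional dendritic cells fall into a lineage that needs the transcription factor Batf3 and carries the chemokine receptor Xcr1, and a lineage that depends on Irf4. Zbtb46 is a zinc finger repressor of the conventional dendritic lineage, Flt3 is the receptor for its main growth factor, and Itgax encodes the integrin CD11c. Cd83 is a surface protein of mature dendritic cells that stabilises MHC class II, and Ccr7 guides mature cells to lymph nodes. Several of these genes are not exclusive to dendritic cells. Activated lymphocytes express Cd83 and Irf4, and endothelial cells express Zbtb46.

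The values below are log2 levels relative to the 75th percentile of signal on the same array, so a negative level lies under that percentile. Levels of different probes cannot be ranked against each other. The arrays sat on 4 slides. Slide 1 held all alpha rats and delta rats 1 to 3, slide 2 held delta rats 4 and 5, all gamma rats and Control rat 1, slide 3 held the other 4 Control rats (2 to 5) with NMBA rats 1 to 4, and slide 4 held NMBA rat 5. No slide held NMBA rats together with a tocopherol group, so only Control rat 1 links the 2 sets of slides. The 75th percentile itself ranged over rats from 3088 to 8096 signal units, and 70.6% to 79.8% of spots were well above background. The mean level of 6 squamous epithelium markers was 2.14 to 2.45 in alpha rats, 2.24 to 2.45 in delta rats, 2.01 to 2.66 in gamma rats, 2.46 to 2.73 in NMBA rats and 2.19 to 2.57 in Control rats. NMBA rats thus lay above all alpha and delta rats. That of 6 muscle markers lay between 2.39 and 3.68, and that of 6 fibroblast markers between 1.41 and 3.47. In such bulk samples, fewer cells of a type and less RNA per cell cannot be told apart.

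Of the members, Zbtb46 in gamma rats against NMBA rats was the one difference that passed the test (adjusted p under 0.05) in any of the 10 comparisons. It was lower in gamma rats by about 1 log2 unit. Cd83 and Batf3 had lower means in each tocopherol group than in the NMBA group, and a higher mean in the NMBA group than in the Control group, but none of these differences passed. The same NMBA rats enter each of these comparisons, so the comparisons are not separate observations. A high mean of those rats alone would give both directions. The Langerhans marker Cd207, together with Flt3 and Itgax, had no probe that the accession table named, so these 3 genes were not analysed here. Ccr7, Irf4 and Xcr1 were near background.

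**Figure D1:**
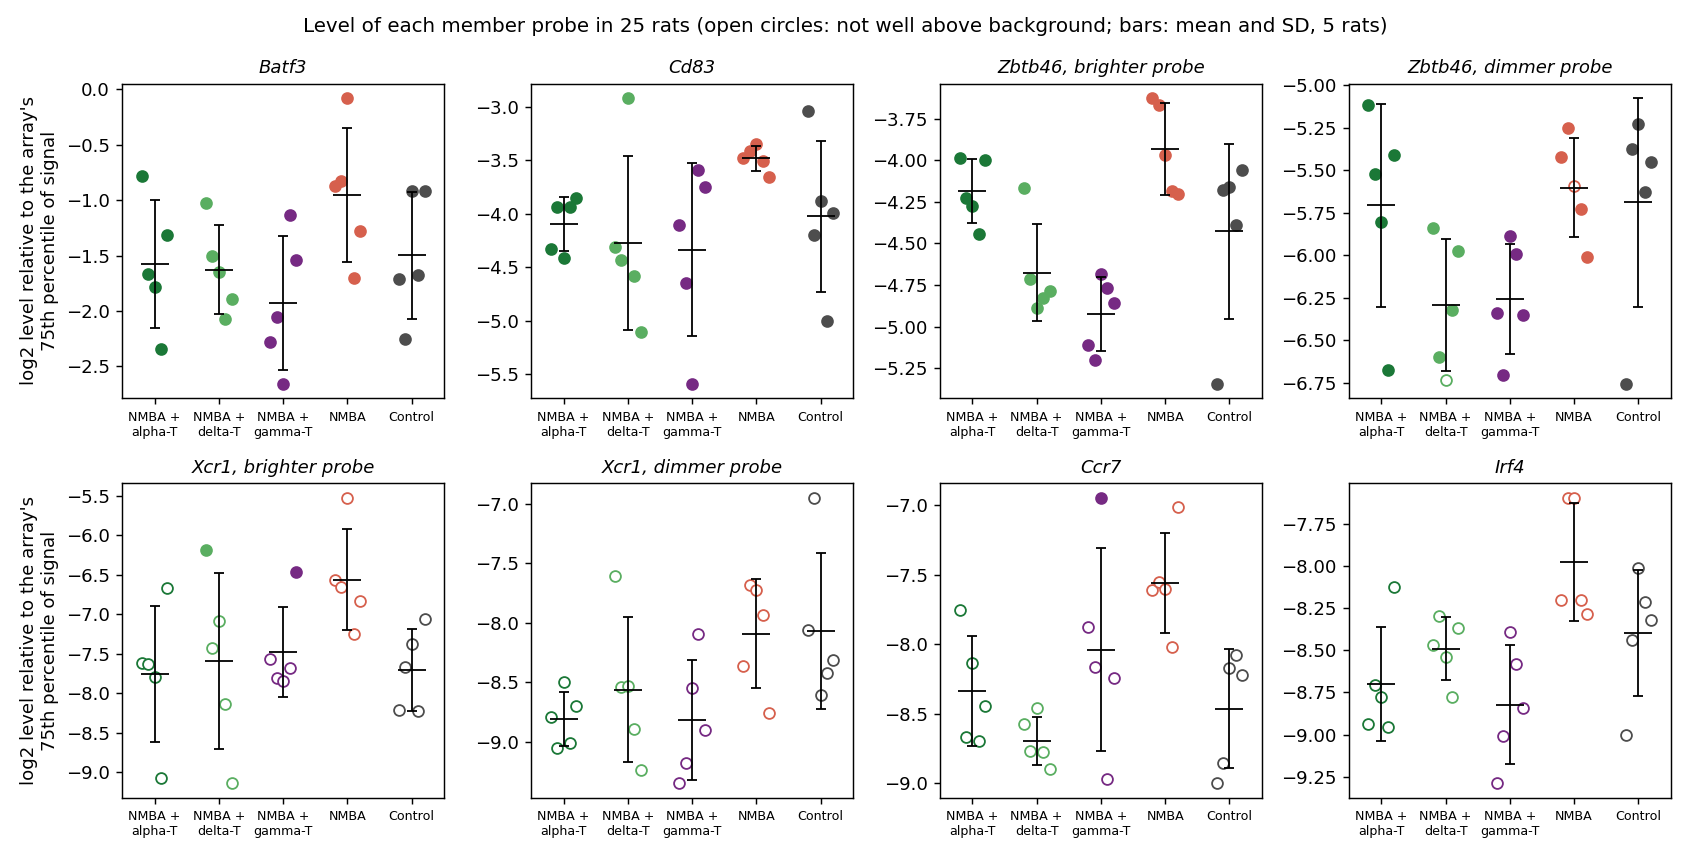
The log2 level of each of the 8 member probes in each rat, relative to the 75th percentile of signal of that rat's array, with the group mean and SD. Groups run from NMBA plus alpha-tocopherol (alpha-T), delta-tocopherol (delta-T) and gamma-enriched tocopherol (gamma-T) to NMBA and Control. Filled circles are arrays on which the probe was well above background. The 5 gamma rats lie below the 5 NMBA rats for the brighter Zbtb46 probe, and nearly all circles of Xcr1, Ccr7 and Irf4 are open.

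Among the transcription factors of the lineage, Zbtb46 had 2 probes, and the brighter one was tested. Its levels were −5.11, −5.20, −4.68, −4.77 and −4.86 in gamma rats 1 to 5, against −3.63, −3.67, −3.97, −4.19 and −4.21 in NMBA rats 1 to 5. The highest gamma rat lay below the lowest NMBA rat. The difference was −0.99 ± 0.20 (SE, n = 5 rats per group; limma, adjusted p = 0.00515). In this comparison 8.95% of all tested genes passed the test and 7.05% had groups that did not overlap, and the median difference of all genes was −0.104.

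In delta rats 1 to 5 the brighter Zbtb46 probe read −4.17, −4.71, −4.89, −4.83 and −4.78. Delta rat 1 lay apart from the other delta rats and inside the NMBA range. The difference from NMBA was −0.74 ± 0.20 (adjusted p = 0.0508 by limma, against 2.49% of genes passing), just on the other side of the threshold. Without delta rat 1 it was −0.87 with an adjusted p of 0.0314. Without NMBA rat 4 it was −0.81 (adjusted p = 0.0367), and without NMBA rat 5 it was −0.81 (adjusted p = 0.0476). Of 22 fits (the main fit, the alternatives and each rat of either group left out) 9 passed. The differences in these fits ran from −0.87 to 0.20.

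In alpha rats 1 to 5 Zbtb46 read −3.99, −4.23, −4.27, −4.45 and −4.00, a range that overlapped that of the NMBA rats. The difference from NMBA was −0.26 ± 0.20 (95% interval −0.68 to 0.16; adjusted p = 0.551, with 3.82% of genes passing). In Control rats 1 to 5 the levels were −5.34, −4.18, −4.16, −4.39 and −4.06. Control rat 1, the one Control on slide 2, was lower than every gamma rat, whereas Control rats 2 to 5 overlapped the NMBA rats. NMBA exceeded Control by 0.50 ± 0.20 (adjusted p = 0.301, with 1.55% of genes passing), and by 0.34 within slide 3, with 4 rats a group (adjusted p = 0.458).

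Ordered by their means, the groups ran NMBA (−3.93 ± 0.28), alpha (−4.19 ± 0.19), Control (−4.43 ± 0.53), delta (−4.68 ± 0.29) and gamma (−4.92 ± 0.22; SD, n = 5 rats each). No neighbours in that order differed by more than the larger of their SDs. Gamma rats lay below alpha rats without overlap (difference −0.74 ± 0.20, adjusted p = 0.0706), where 1.62% of genes passed and 3.19% did not overlap. Without alpha rat 4 this difference was −0.80 with an adjusted p of 0.0380. Of 22 fits, alternatives and left-out rats included, 2 passed, and the differences ran from −0.80 to −0.52. Gamma against Control gave −0.50 ± 0.20 (adjusted p = 0.202, with 0.632% of genes passing). Without Control rat 1 it was −0.73 with an adjusted p of 0.0103. Of 22 such fits of gamma against Control 1 passed, and the differences ran from −0.73 to 0.42.

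The comparisons of Zbtb46 in the tocopherol groups with NMBA did not keep their direction once slide entered the fit as a fixed block. Those of delta and gamma rats with alpha rats did. Gamma against NMBA in the blocked fit gave 0.08 (adjusted p = 0.998), delta against NMBA 0.20 (0.855) and alpha against NMBA 0.60 (0.555). These blocked values against NMBA rest on Control rat 1, the single array that joins the slides of NMBA rats to those of the tocopherol groups. Within slide 2 the gamma rats averaged −4.92 and Control rat 1 read −5.34. In that blocked fit 1 gene in all was called in each of the 3 comparisons with NMBA. With slide as a random block the gamma difference was −1.06 (adjusted p = 0.00123) and the delta difference −0.78 (0.0275). The correlation within slides in that random-block fit was −0.0311, below 0, so it took out no shared slide shift. Slide and group cannot be told apart for the tocopherol groups against NMBA beyond that 1 rat.

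The dimmer Zbtb46 probe followed the brighter one over the 25 rats (Pearson r = 0.84, as a description). Its gamma rats read −6.34, −6.71, −5.89, −5.99 and −6.35, against −5.42, −5.25, −5.59, −5.73 and −6.01 in NMBA rats. These ranges overlapped, and gamma minus NMBA was −0.65 (adjusted p = 0.141 by limma). Control rat 1 was again the lowest Control, at −6.76. NMBA minus Control was 0.09 with this probe (adjusted p = 0.924).

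Zbtb46 levels also moved with the brightness of the array. Over the 25 rats r with the log2 75th percentile was −0.57 for the brighter probe and −0.59 for the dimmer, and −0.53 and −0.63 after group means were removed. The group medians of that percentile were 4039 in alpha rats, 4757 in delta rats, 6134 in gamma rats, 4419 in NMBA rats and 5570 in Control rats. Before scaling, the brighter probe's processed signal was 144 to 220 in gamma rats, against 340 to 355 in NMBA rats 1 to 4 on slide 3 and 179 in NMBA rat 5 on slide 4. The Control rats on slide 3 read 266 to 312 and Control rat 1 on slide 2 read 161. So the gamma rats overlapped NMBA rat 5 before scaling. The part of array brightness in the Zbtb46 difference was not tested, and that of slide cannot be told apart from group beyond Control rat 1.

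**Figure D2:**
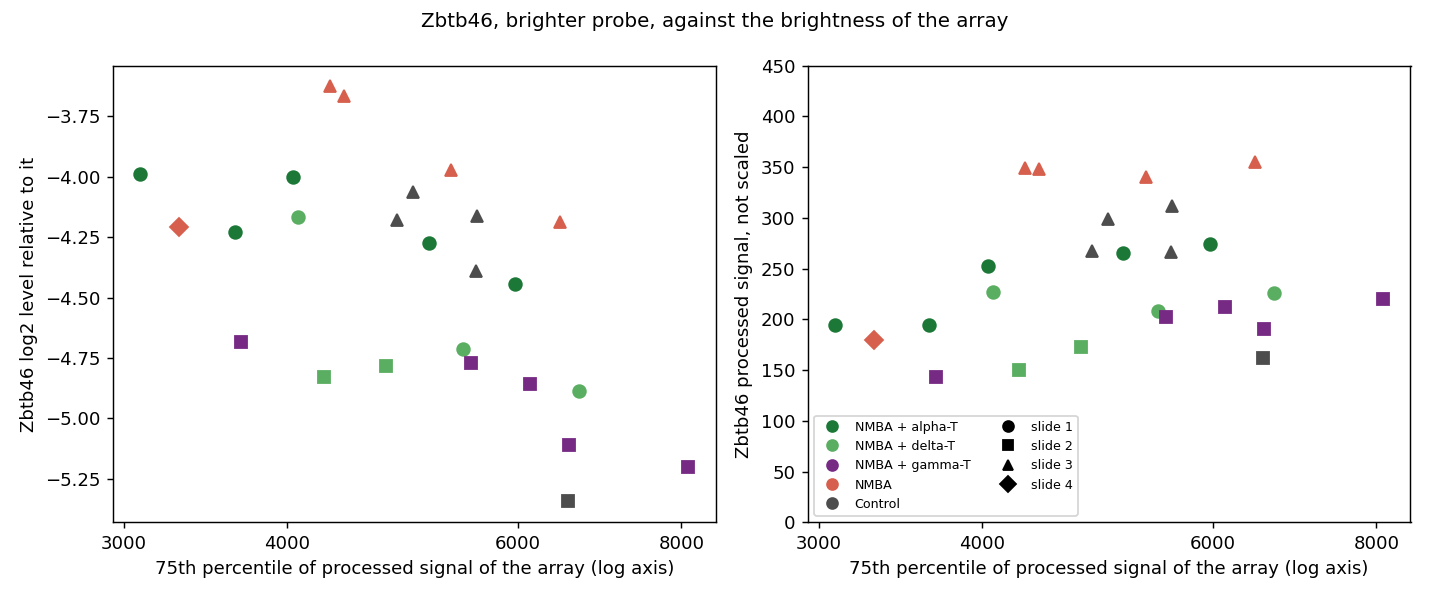
The brighter Zbtb46 probe in each of 25 rats against the 75th percentile of processed signal of the array (log axis). The left panel gives the scaled log2 level and the right panel the processed signal before scaling, with colour for the group and marker shape for the slide. Scaled levels are lower on brighter arrays (r = −0.57), and unscaled signals of all rats on slide 2, Control rat 1 included, are at or below 220.

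Batf3 is a transcription factor on which the Xcr1-positive lineage depends in mice. Since Xcr1 itself was near background, Batf3 levels are not read here as the amount of that lineage. Batf3 was read on 1 bright probe. Its levels were −2.28, −2.05, −2.66, −1.13 and −1.54 in gamma rats, against −0.87, −0.83, −0.08, −1.70 and −1.28 in NMBA rats. NMBA rat 3 was the highest of all 25 rats and gamma rat 3 the lowest, while the 2 groups overlapped. The difference was −0.98 ± 0.34 (95% interval −1.67 to −0.29; adjusted p = 0.067). Without gamma rat 4 it was −1.18 with an adjusted p of 0.0357, and without NMBA rat 4 it was −1.17 with an adjusted p of 0.0301. Of 21 fits (the main fit, the alternatives and each rat of either group left out) 4 passed. The differences in these fits ran from −1.18 to −0.76.

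Alpha rats read −0.78, −1.67, −1.79, −2.34 and −1.31 for Batf3, and delta rats −1.03, −1.50, −1.65, −2.08 and −1.89. Both sets overlapped the NMBA rats. The differences from NMBA were −0.63 ± 0.34 for alpha (adjusted p = 0.328) and −0.68 ± 0.34 for delta (adjusted p = 0.263). Control rats read −1.71, −2.26, −0.92, −1.68 and −0.92, and NMBA minus Control was 0.54 ± 0.34 (adjusted p = 0.522; 0.57 within slide 3, adjusted p = 0.659). The means ran NMBA (−0.95 ± 0.60), Control (−1.50 ± 0.57), alpha (−1.58 ± 0.58), delta (−1.63 ± 0.40) and gamma (−1.93 ± 0.60), and each neighbouring pair differed by less than 1 SD. With slide as a fixed block the tocopherol groups stayed below NMBA, at −1.03, −0.84 and −0.79 for alpha, delta and gamma, with adjusted p of 0.624 to 0.998.

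Cd83, the maturation marker, was read on 1 probe. Its levels were −4.33, −3.94, −4.41, −3.94 and −3.86 in alpha rats, against −3.48, −3.42, −3.35, −3.51 and −3.66 in NMBA rats. The NMBA rats held within a narrow range and all alpha rats lay below it, as groups did not overlap for 4.7% of genes. The difference was −0.61 ± 0.37 (95% interval −1.37 to 0.15; adjusted p = 0.395 by limma, whose SE rests on all 5 groups).

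The spread of Cd83 was wider elsewhere. Delta rats read −4.31, −4.44, −2.92, −4.58 and −5.11, with delta rat 3 above every NMBA rat. Gamma rats read −4.10, −4.65, −5.59, −3.59 and −3.76, and gamma rat 4 lay inside the NMBA range. The differences from NMBA were −0.79 ± 0.37 for delta (adjusted p = 0.232) and −0.85 ± 0.37 for gamma (adjusted p = 0.144). Control rats read −3.04, −4.20, −3.88, −5.00 and −4.00. NMBA minus Control was 0.54 ± 0.37 (adjusted p = 0.568), and 0.83 within slide 3 (adjusted p = 0.198).

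The group SD of Cd83 was 0.12 in NMBA rats, 0.26 in alpha rats, and between 0.70 and 0.81 in the others. The means ran NMBA (−3.48), Control (−4.02), alpha (−4.10), delta (−4.27) and gamma (−4.34), with neighbours closer than the larger of their SDs. With slide as a fixed block the tocopherol differences from NMBA were −2.84, −2.63 and −2.13 for alpha, delta and gamma (adjusted p = 0.457, 0.640 and 0.998). The blocked values again rest on Control rat 1, which was the highest Control for Cd83.

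**Figure D3:**
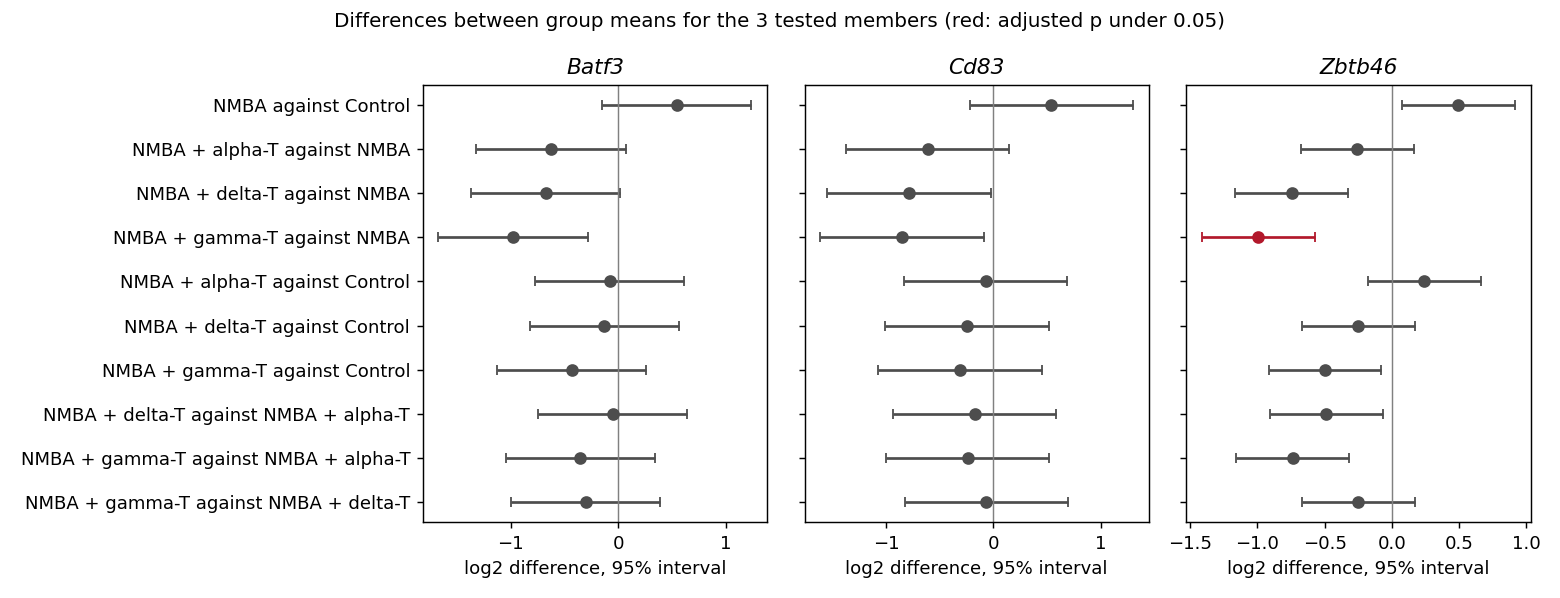
Differences of group means for Batf3, Cd83 and Zbtb46 (brighter probe) in 10 comparisons, in log2 units with 95% intervals from the fit across all arrays. Points left of 0 are lower in the group named first. Only the interval of Zbtb46 for gamma-enriched tocopherol against NMBA is red, for an adjusted p under 0.05, and for all 3 genes NMBA lies above Control and each tocopherol group below NMBA. The comparisons with NMBA share the same NMBA rats.

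The tocopherols differ from each other in the number and position of methyl groups on the chromanol ring, and the gamma-enriched preparation is a mixture. Since the labels state no doses, the groups are compared as labelled. Over the 3 pairs of tocopherol groups, none of the 3 tested members passed, where 0% of genes passed for delta against alpha and for gamma against delta (571 and 503 genes at an unadjusted limma p under 0.05). Apart from Zbtb46 in gamma against alpha, the pairwise differences were between −0.49 (Zbtb46, delta minus alpha) and −0.05 (Batf3, delta minus alpha). For gamma minus delta the 95% intervals were −0.67 to 0.17 for Zbtb46, −0.83 to 0.70 for Cd83 and −1.0 to 0.39 for Batf3, so differences of those sizes remain possible. On slide 1, which held both, delta minus alpha was −0.40 for Zbtb46, 0.21 for Cd83 and 0.19 for Batf3 (3 delta and 5 alpha rats). On slide 2 gamma minus delta was −0.12, 0.51 and 0.05 for the same genes (5 gamma and 2 delta rats).

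Against Control, no member passed in any tocopherol group, where 0.818% of genes passed for alpha and 0.194% for delta. Cd83 differed from Control by −0.07, −0.25 and −0.31 in alpha, delta and gamma rats, and Batf3 by −0.08, −0.13 and −0.43. The SE was 0.37 for Cd83 and 0.34 for Batf3. These comparisons share the Control rats with each other and the tocopherol rats with the comparisons above.

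Of the receptors, Xcr1 binds the chemokine Xcl1 and marks the Batf3-dependent lineage. Its brighter probe was well above background in delta rat 1 (−6.19) and gamma rat 5 (−6.47) and in no other rat. NMBA rat 3 had the highest level of all at −5.53 but did not meet the scanner software's background criterion. Its dimmer probe was well above background in 0 rats, with group means of −8.81 to −8.07. Ccr7, the lymph node homing receptor, was well above background in gamma rat 3 alone (−6.95), with NMBA rats between −8.02 and −7.01 and Control rats between −9.0 and −8.08. Irf4 was well above background in no rat, at levels from −9.29 to −7.60. The median processed signals of 31.7 and 14.2 for the Xcr1 probes, 18.3 for Ccr7 and 14.4 for Irf4 set how little can be read from them. No fold is given for these genes.

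Genes whose pattern over the 25 rats was most like each member were named by Pearson correlation across all tested genes, as a description that shares arrays, scaling and depth. For Batf3 these were Napsa, an aspartic protease (r = 0.88), Cd40, the costimulatory receptor through which T cells license dendritic cells (0.88), and RT1-Bb, an MHC class II beta chain (0.87). After group means were removed the values were 0.87, 0.85 and 0.86. For Cd83 they included Plek, pleckstrin of platelets and leukocytes (0.77), and the monocyte chemokine Ccl2 (0.74). For Zbtb46 they were Garin1b (0.97), Cacng5, a calcium channel auxiliary subunit (0.96), and Gphb5, a glycoprotein hormone subunit (0.96), 3 genes whose probes were of similar low signal (medians 205, 204 and 131, against 226 for Zbtb46). Among the members themselves, Zbtb46 and Batf3 had an r of 0.61, Cd83 and Batf3 0.49, and Zbtb46 and Cd83 0.17.

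**Figure D4:**
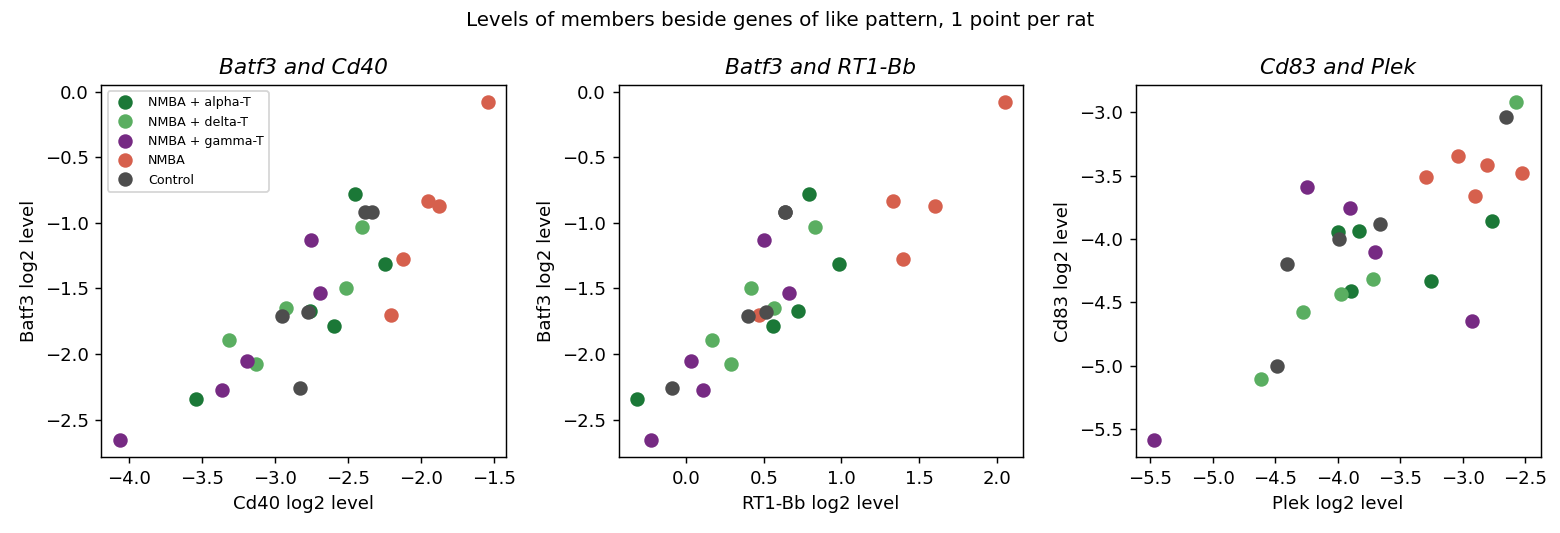
Log2 levels in each of 25 rats of Batf3 against Cd40 and against RT1-Bb, and of Cd83 against Plek, coloured by group. Batf3 follows both genes over all groups (r = 0.88 and 0.87), with NMBA rat 3 highest in each panel of Batf3, and Cd83 follows Plek more loosely (r = 0.77).

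Batf3 also followed the mean of the lists of related genes, with r of 0.92 for dendritic growth factors and ligands, 0.86 for maturation genes and 0.86 for MHC class II genes. Its r was 0.74 with the T cell list, 0.60 with the macrophage and monocyte list and 0.24 with the squamous epithelium list. Its r with the pan-leukocyte list was 0.79. Zbtb46 had its highest r with the B cell list (0.83), then with the pan-leukocyte list (0.70), and an r of 0.48 and 0.29 with the lists of the Batf3-dependent and Irf4-dependent lineages. Batf3 is the member whose promoter is shown, as the 250 bases before the transcription start given by RefSeq (GRCr8, chr13:105220532-105220781, plus strand). Capitals mark matches to a loose NF-kB form (GGG and CC separated by any 5 bases) on either strand, of which there are 3, and 2 of them overlap.
Batf3: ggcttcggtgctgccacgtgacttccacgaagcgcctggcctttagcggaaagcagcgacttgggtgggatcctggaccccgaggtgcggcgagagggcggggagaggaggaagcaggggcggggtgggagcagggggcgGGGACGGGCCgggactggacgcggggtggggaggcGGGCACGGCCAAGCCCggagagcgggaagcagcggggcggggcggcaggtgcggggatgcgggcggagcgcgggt
That form occurs in 42.3% of 33469 rat promoter windows of this length. The window holds no match to the interferon response form (GAAA and GAAA separated by any 2 bases, in 3.4% of windows), the AP-1 form TGANTCA (6.3%) or the composite form of ETS and IRF factors (GGAA and GAAA separated by any 2 bases, in 2.5%, letters that can overlap those of the interferon form), each searched on both strands. These matches describe letters and not binding. The windows listed for Zbtb46 and Cd83 lie inside the spans of their own genes and are not shown.

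Among ligands that act on these cells, Xcl1, the chemokine that Xcr1 binds, averaged −1.82 ± 0.46 in NMBA rats and −2.73 ± 0.13 in Control rats, a difference of 0.92 ± 0.19 (SE; adjusted p = 0.0105). It was lower than in NMBA rats in all 3 tocopherol groups, with differences of −1.16 ± 0.19 in alpha rats (adjusted p = 0.00327), −1.05 ± 0.19 in delta rats (0.0164) and −0.91 ± 0.19 in gamma rats (0.00553). Xcl1 comes mainly from activated NK and T cells. Ccl22, a chemokine made by mature dendritic cells and macrophages, averaged −3.13 ± 0.38 in NMBA rats and −4.73 ± 0.56 in Control rats, a rise of 1.60 ± 0.23 (adjusted p = 3.57e-04). It fell in alpha rats by 0.99 on the log2 scale (adjusted p = 0.0167), and differed from NMBA by −0.75 in delta rats (0.0654) and −0.62 in gamma rats (0.0852). Gamma rats remained 0.98 ± 0.23 above Control for Ccl22 (adjusted p = 0.0448). Ccl17, which shares the receptor Ccr4 with Ccl22, was lower in gamma rats than in NMBA rats (−1.54 ± 0.41, adjusted p = 0.0207). Of 10 listed growth factors and ligands 7 were tested: 2 rose in NMBA rats, and 2, 1 and 2 fell in alpha, delta and gamma rats against NMBA. Over all tested genes 1.3% rose in NMBA rats, and 2.52%, 2.02% and 7.36% fell in alpha, delta and gamma rats. The list's median differences were 0.33, −0.58, −0.67 and −0.85 in those comparisons, against 0.05, −0.03, −0.05 and −0.10 for all genes.

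Of 16 listed maturation and costimulation genes, 13 were tested, and 1 rose in NMBA rats (Ccl22), while 1, 0 and 4 fell in alpha, delta and gamma rats against NMBA (7, 7 and 8 at an unadjusted limma p under 0.05, as were 18.4%, 20.1% and 26.2% of all genes). The list's median differences were −0.40, −0.52 and −0.62. The share of all tested genes called as lower was 2.52%, 2.02% and 7.36% in those groups. In gamma rats the called genes were Ccl17, Cd40 (−1.27 ± 0.25, adjusted p = 0.00454), Cd80, a ligand of CD28 on T cells (−1.01 ± 0.25, adjusted p = 0.0147), and Marcksl1 (−0.67 ± 0.19, adjusted p = 0.0263). Cd40 differed from NMBA by −0.78 in alpha rats (0.0858) and −0.92 in delta rats (0.0531). Cd80 averaged −4.74 ± 0.31 in alpha rats, −5.67 ± 0.28 in gamma rats and −4.66 ± 0.45 in NMBA rats. With slide as a fixed block its gamma difference was 0.10 (adjusted p = 0.998), as for Zbtb46.

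MHC class II genes, which load and display antigen, were the list with the largest count of falls among dendritic cell lists. Of 9 listed and tested, 1 rose in NMBA rats, and 5, 4 and 7 fell in alpha, delta and gamma rats against NMBA. Of all tested genes, 1.3% rose and 2.52%, 2.02% and 7.36% fell in the same comparisons. The class II gene that rose was Ciita, the master transactivator of the class (1.20 ± 0.24, adjusted p = 0.00859). It was lower than in NMBA rats in alpha rats (−1.04 ± 0.24, adjusted p = 0.0184) and gamma rats (−1.34 ± 0.24, adjusted p = 0.00364). In delta rats Ciita differed from NMBA by −0.86 (adjusted p = 0.0544). Cd74, the invariant chain, was lower in all 3 tocopherol groups than in NMBA rats, with differences of −0.76, −0.94 and −1.06 in alpha, delta and gamma rats (adjusted p = 0.0216, 0.0192 and 0.00364). RT1-DMb, part of the peptide exchange factor, differed by −0.79, −0.95 and −1.15 in the same groups (0.0457, 0.0297 and 0.00416). RT1-Da and RT1-Bb differed from NMBA by −1.12 and −1.15 in gamma rats (0.00706 and 0.00829). The RT1 genes are close paralogs, so their probes may share signal. The median over the list was 0.68 in NMBA against Control and −0.75, −0.87 and −1.06 in the 3 tocopherol groups against NMBA.

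Over all tested genes, 1.55% were called in NMBA against Control (1.3% rose), and 2.52%, 2.02% and 7.36% fell in alpha, delta and gamma rats against NMBA. Of 16 Langerhans and epidermal retention genes 14 were tested: 0 were called in NMBA against Control, and 1 fell in each tocopherol group. That gene was Runx3, needed for Langerhans cell development in mice, in alpha rats (−1.42 ± 0.23, adjusted p = 0.00328) and delta rats (−1.07 ± 0.23, 0.0266), and the chemokine receptor Ccr6 in gamma rats (−0.79 ± 0.24, 0.0431). Runx3 in alpha rats was also below Control (−0.97 ± 0.23, adjusted p = 0.0494). T cell genes fell in the same comparisons with NMBA (4, 5 and 7 of 8 in alpha, delta and gamma rats). The part of such cells in the Runx3 and Ccr6 differences was not tested. Of 7 tested genes listed with the Batf3-dependent lineage only Xcl1 was called, the ligand of Xcr1 that comes mainly from activated NK and T cells. The Batf3-dependent list shares Cd8a with the T cell list. The 7 tested genes listed with the Irf4-dependent lineage were Sirpa, Clec10a, Zeb2, Klf4, Cd4, Cd209a and Itgam. Of these 0 were called in any comparison with NMBA or Control. At an unadjusted limma p under 0.05, 1 of the Irf4-dependent genes differed in delta rats against NMBA and 0 in the other comparisons with NMBA or Control. For the Batf3-dependent list this count was 3 in NMBA against Control and 3, 2 and 4 in alpha, delta and gamma rats against NMBA. Its median differences there were 0.252, −0.599, −0.439 and −0.435. For the 14 epidermal genes the unadjusted count was 1 in NMBA against Control and 1, 1 and 6 in alpha, delta and gamma rats against NMBA. Of all genes, 12.8%, 18.4%, 20.1% and 26.2% had such a p in these comparisons. Of 5 tested plasmacytoid dendritic cell genes, 1 rose in NMBA rats, the interferon regulator Irf7 (1.29 ± 0.20, adjusted p = 0.0013), and 2, 2 and 3 fell in alpha, delta and gamma rats. Irf7 differed from NMBA by −1.07, −1.02 and −1.08 in those groups, and it is not particular to that cell type.

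Within slide 3, with 4 rats a group, NMBA exceeded Control by 0.93 for Xcl1, 1.69 for Ccl22, 1.11 for Ciita and 1.30 for Irf7. Irf7 alone passed there (adjusted p = 0.0416; 0.165, 0.0906 and 0.179 for the others), and 31 genes in all were called. With slide as a fixed block none of these named genes passed in a tocopherol comparison. Over the 35 calls of named genes, those of NMBA against Control included, every SE was larger there and 34 differences kept their direction. Of the differences 20 were at least as large as before. The blocked tocopherol differences all rest on Control rat 1, so they are not separate observations. Cd74 gave −1.47, −1.43 and −1.21 in alpha, delta and gamma rats against NMBA, Irf7 gave −1.76, −1.51 and −1.29, and RT1-DMb gave −1.11, −1.14 and −1.16. Xcl1 gave −1.0, −0.89 and −0.76, Runx3 −0.68 in alpha rats and −0.53 in delta rats, and Ccl22 in gamma rats against Control 0.71 (adjusted p = 0.984). Cd80 in gamma rats was the one that turned.

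Markers of other cells moved in the same comparisons, which share the NMBA rats. Over the array, 1.3% of tested genes rose in NMBA rats against Control, and 2.52%, 2.02% and 7.36% fell in alpha, delta and gamma rats. All 8 listed T cell genes were tested, 7 rose in NMBA rats against Control, and 4, 5 and 7 fell in alpha, delta and gamma rats against NMBA. Their mean level per rat was −4.45 to −3.37 in alpha rats, −4.66 to −3.27 in delta rats, −4.90 to −3.84 in gamma rats, −3.53 to −1.94 in NMBA rats and −4.66 to −3.69 in Control rats. Of 4 tested NK cell genes, 2 rose in NMBA rats and 3, 3 and 4 fell in the tocopherol groups, and of 5 pan-leukocyte genes, 2 rose and 2, 2 and 3 fell. Of 9 macrophage and monocyte genes, 0 were called in NMBA against Control or in alpha or delta against NMBA, and 1 fell in gamma rats (0, 0, 1 and 4 at an unadjusted limma p under 0.05, against 12.8%, 18.4%, 20.1% and 26.2% of all genes). Of 4 tested B cell genes 1 fell in gamma rats against NMBA (3 unadjusted), with medians of −0.47, −0.48 and −0.59 in alpha, delta and gamma rats. Of 6 squamous epithelium genes 0 were called in NMBA against Control (3 unadjusted), and 1, 1 and 3 fell in alpha, delta and gamma rats against NMBA (4 unadjusted in each), with medians of −0.46, −0.38 and −0.52. The part of these cells in the levels of Zbtb46, Batf3, Cd83 and the class II genes was not tested.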

How the data were processed

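Total RNA of 25 rats was hybridised to 1-colour Agilent arrays, 1 per rat. Per the file headers, the deposited values are scanner intensity, background-subtracted and detrended by Agilent Feature Extraction 11.5.1.1; the submitters' processing notes name 10.7. The authors' deposited value table is on a log2 scale and served as an alternative.

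After removal of spots that the software marked as non-uniform or as population outliers, log2 processed signals were averaged per probe, and the array's 75th percentile, taken over all non-control spots, was subtracted. Of 30367 probes, 18355 matched 1 symbol by RefSeq accession (names from GRCr8; the array was annotated on rn4). Probes well above background on at least 5 arrays were kept, and each gene took its brightest kept probe. Group means were fitted over 25 arrays with limma 3.58.1, with Benjamini-Hochberg adjustment within each comparison over 12343 genes (threshold 0.05). Two-sided exact permutation tests of single members were an alternative. The fit was tested on simulated data. The number of arrays limits the precision, and replicates are described as biological in the series text.

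The members and the lists were chosen with earlier results of these data known, as was the scaling. Of each list up to 4 called genes are named, and for each member the 3 genes with the highest correlation, provisional symbols passed over; one such gene is not reported here. Alternatives were normexp on the median signals, quantile normalization, the deposited table, other filters, the mean of probes, slide and rat number as blocks, the percentile over averaged probes, the dimmer probe and each rat left out. The percentile over averaged probes, the dimmer probe and normexp on the median (in place of the mean) signals were chosen after seeing the data.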

Additional observations from a re-analysis of the deposited data

Results flagged for a closer look

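Among 40 sets of 5 rats (8 member probes in 5 groups), 4 had 1 rat far from its group, where chance alone gives about 1 in 20 sets. Control rat 1 was far below the other Controls on both Zbtb46 probes, at −5.34 on the brighter one (nearest −4.39) and −6.76 on the dimmer one (nearest −5.63). It is the only Control on slide 2 and the only rat that links the slides. Delta rat 1 was far above the other delta rats on the brighter Zbtb46 probe, at −4.17 (nearest −4.71). Gamma rat 5 was far above the other gamma rats on the brighter Xcr1 probe, at −6.47 (nearest −7.57), and was the one gamma rat in which that probe was well above background. The cause was not tested for any of these.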

How the results depend on the processing

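Over the alternatives other than leaving out a rat, 310 of the values for the 3 tested members kept their direction and side of the threshold, 16 turned direction, 16 passed anew (unadjusted exact permutation tests among them) and 1 ceased to pass (the dimmer Zbtb46 probe in gamma against NMBA, −0.65, adjusted p = 0.141). The count of members called for delta against NMBA, 0 as reported, was 1 (Zbtb46) with quantile normalization (adjusted p = 0.0243), the deposited table (0.0441), a filter of 20 arrays (0.0489), slide as a random block (0.0275) and the percentile over averaged probes (0.0431), and 2 with no filter (Zbtb46 and Ccr7, 0.0316). For alpha against NMBA it was 1 with no filter (Irf4, 0.0217). For gamma against NMBA, 1 as reported, it was 3 with no filter (Zbtb46, Batf3 at 0.0400 and Irf4 at 0.00878), 2 with slide as a random block (Batf3, 0.0311) and 0 with slide as a fixed block. Irf4 and Ccr7 passed there at levels near background. For gamma against alpha it was 1 with the random block (Zbtb46, 0.0200). The random block had a correlation within slides of −0.0311 and so took out no shared slide shift. With a rat left out the counts ranged from 0 to 1 for delta against NMBA, gamma against alpha and gamma against Control, and from 1 to 2 for gamma against NMBA.

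With slide as a fixed block Zbtb46 turned direction against NMBA (0.60 alpha, 0.20 delta, 0.084 gamma) and against Control (0.54 delta, 0.42 gamma), Cd80 in gamma against NMBA (0.10), Cd83 in delta against alpha (0.21), gamma against alpha (0.71) and gamma against delta (0.51), and Batf3 in the same pairs (0.19, 0.24 and 0.052). With normexp Batf3 turned in delta against alpha (0.053) and Cd83 in gamma against delta (0.017). With quantile normalization Cd83 turned in alpha against Control (0.0032). The dimmer Zbtb46 probe gave −0.018 for alpha against Control and 0.037 for gamma against delta. With a rat left out, Batf3 ranged from −0.24 to 0.15 in delta against alpha, −0.28 to 0.11 in alpha against Control and −0.32 to 0.013 in delta against Control. Cd83 ranged from −0.32 to 0.17 in alpha against Control, −0.58 to 0.00051 in delta against Control, −0.56 to 0.0017 in gamma against Control, −0.27 to 0.27 in gamma against delta, −0.51 to 0.035 in delta against alpha and −0.43 to 0.073 in gamma against alpha. The cause was not tested.

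The rat numbers were not taken as pairs, since in no comparison did every same-numbered pair correlate above 0.1: over the 10 comparisons the correlations ran between −0.58 and 0.53, with −0.37 to −0.02 for NMBA against Control. With rat number as a replicate block the counts of members called were 0, 0, 0 and 1 for NMBA against Control and alpha, delta and gamma against NMBA. The number of genes called over the array ranged, over the alternatives other than leaving out a rat, from 31 to 227 for NMBA against Control (191 reported), 1 to 2141 for alpha (471), 1 to 961 for delta (307) and 1 to 3321 for gamma against NMBA, the lows of 1 with slide as a fixed block. Of the 35 calls of other named genes, 32 no longer passed with slide as a fixed block and 1 turned, although 34 differences kept their direction and 20 were at least as large, with a larger SE for each. The blocked tocopherol differences among them all rest on Control rat 1 and are not separate observations. With quantile normalization 7 no longer passed, with normexp 5, with the replicate block 4, with the mean of probes 2, and with no filter or a filter of 20 arrays 1 each. The low signal of Xcr1, Ccr7 and Irf4 limits what can be read of them.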
